A study of Mus musculus with 12 samples.

Results

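Arginine use and polyamine synthesis were described in murine hip cartilage through 8 genes, Ass1, Nos2, Odc1, Azin1, Amd1, Srm, Sms and Sat1. Their probes were taken by gene symbol, and the genes were chosen with earlier results of these data known. Of the 8 genes, 5 had probes in the normalized table, which holds 21004 probes and 15434 gene symbols, and these 5 genes had 7 probes. Nos2 and Azin1 had probes only outside that table, where 1 further Sms probe also lay, and Amd1 had no probe under its symbol. The array carries 2 probes for Amd2, a gene that the reference table pairs with the name Amd1, and these are listed apart.

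RNA was hybridized to 12 Illumina mouse BeadChips, 1 array per sample, in 4 groups of 3. WT control and WT injured cartilage came from C57BL6 mice of 4 to 6 weeks. Mapk9 KO control and Mapk9 KO injured cartilage came from mice of the same strain and age labelled MAPK9 KO. Mapk9 encodes the stress kinase JNK2, and how the gene was deleted, or whether in the whole animal, is not given in the sources used here. By the methods the femoral epiphysis was torn off, and the cartilage was then either snap-frozen, as control, or cultured in serum-free medium for 4 h, as injured. The groups therefore differ in time after tearing and in culture, and injury and culture cannot be told apart. The methods describe replicates of 6 hips pooled from 3 mice for control and injured cartilage and do not mention the knockout. In such bulk RNA, fewer cells of a type and less RNA per cell cannot be told apart either.

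Between 16930 and 18969 of 45281 probes were detected per array, where detected means a deposited detection p-value under 0.05. The targeted gene was lower under the knockout label on both of its probes. On Mapk9 probe 1 the deposited log2 values lay between 10.05 and 10.90 on the 6 WT arrays and between 8.69 and 9.28 on the 6 knockout arrays, and on Mapk9 probe 2 no knockout array was detected. Mapk9 probe 2 was detected on all 3 WT control arrays but on only 1 of 3 WT injured arrays, so it sits near the detection limit. Probe 1 was still detected on every knockout array, and whether either probe lies in the deleted part is not given.

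Arginine stands at a branch point. It is a source of ornithine, while nitric oxide synthases turn it into nitric oxide and citrulline, and argininosuccinate synthase begins the route from citrulline back to arginine. Ornithine is decarboxylated to putrescine, the first polyamine, which is lengthened to spermidine and then to spermine with aminopropyl groups supplied through S-adenosylmethionine decarboxylase. Polyamines bind nucleic acids and are needed for cell growth.

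Srm probes 2 and 3 are shown because Srm alone passed the threshold given below, on probe 3 in Mapk9 KO. The Amd2 probes are shown because Amd1 has no probe under its symbol. Which of the Amd genes the Amd2 probes report was not settled. Each is a 50-base probe copied from the deposited annotation, written 5′ to 3′ in lower case with nothing in capitals. Srm probe 2 starts at base 935 and Srm probe 3 at base 289 of the Srm transcript, and the Amd2 probes start at bases 755 and 367.
Srm probe 2: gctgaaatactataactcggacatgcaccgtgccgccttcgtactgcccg
Srm probe 3: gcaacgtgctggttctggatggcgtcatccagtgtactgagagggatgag
Amd2 probe 1: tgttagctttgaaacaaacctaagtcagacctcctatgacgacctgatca
Amd2 probe 2: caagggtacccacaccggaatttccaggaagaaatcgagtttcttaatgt

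Of the 5 genes in the table, Srm alone passed the threshold post injury, on 1 of its 3 probes in Mapk9 KO cartilage. A probe passed when it changed more than 2-fold with an adjusted p below 0.05 in limma, adjusted over all 21004 probes. In WT, 0 of the 7 probes of these genes passed it in either direction, where 7.55% of all probes passed upward and 7.14% downward. In Mapk9 KO, 1 of the 7 passed it upward and 0 downward, beside 9.59% and 9.14% of all probes. Without the fold limit, 4 of the 7 WT probes and 5 of the 7 Mapk9 KO probes had a limma adjusted p under 0.05 and stood higher in injured cartilage, where 12.6% and 19% of all probes did. The same 4 and 5 were the counts at an unadjusted p under 0.05, which 37.1% and 46.8% of all probes had in either direction. In each genotype these probes belonged to Srm, Sat1 and Ass1. Srm holds 3 of the 7 probes, so 1 gene is counted more than once in these counts. With the methods' t-test and the fold limit, 0 genes passed in WT and 1 in Mapk9 KO. The smallest adjusted p of that test among the 7 WT probes was 0.053, on Srm probe 1. The median log2 fold change of the 7 probes was 0.79 in WT and 0.76 in Mapk9 KO, against -0.02 in each genotype over all probes.

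**Figure D1:**
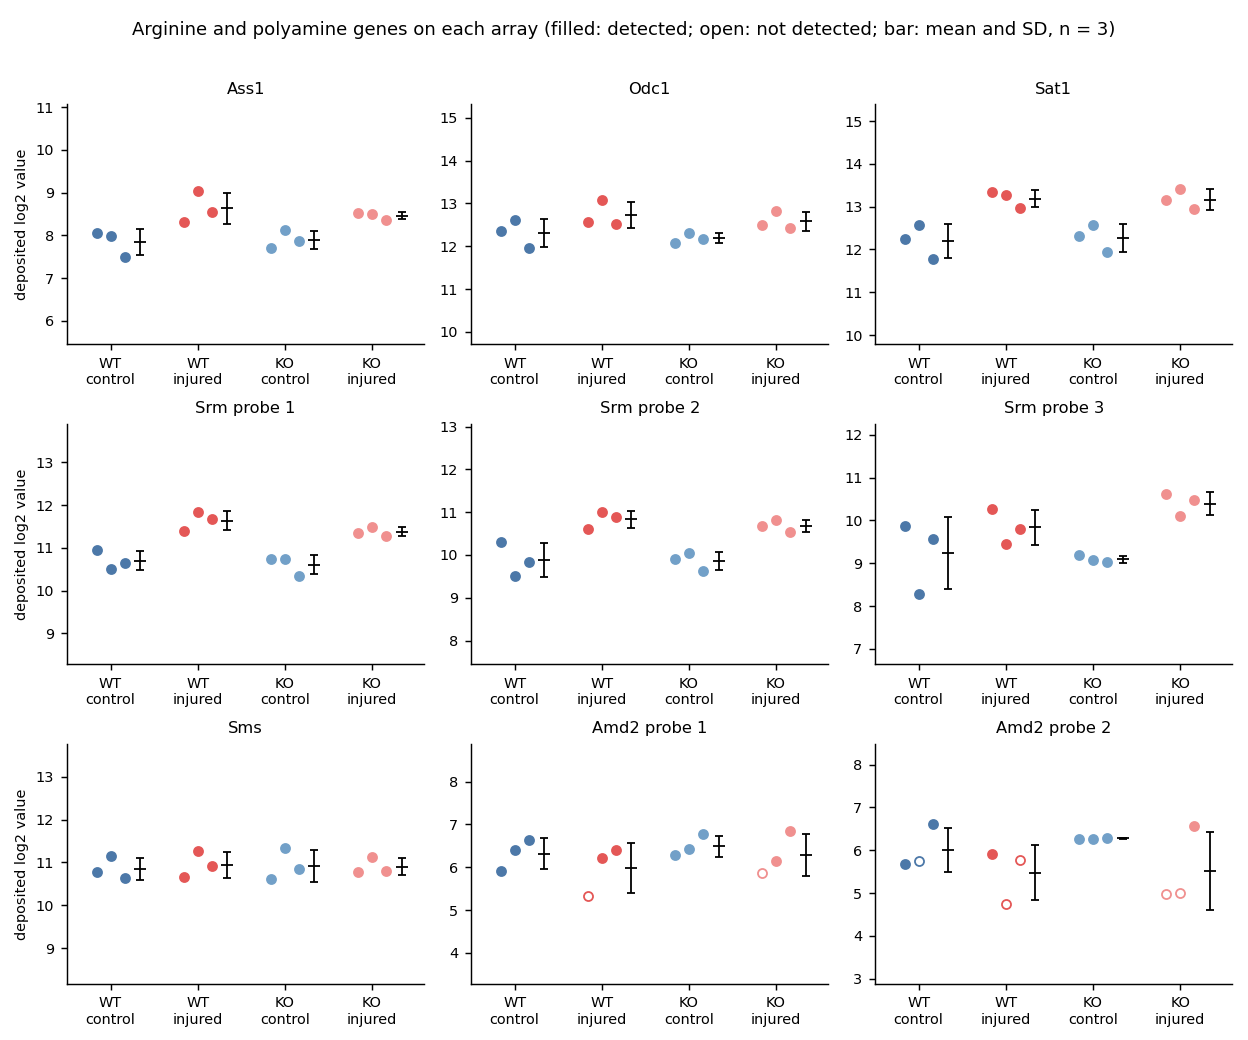
Deposited log2 value (vertical axis, one panel per probe, equal or wider span in each) on each of the 3 arrays per group, filled where the probe was detected and open where it was not, with mean and SD beside. Srm and Sat1 lie higher on injured arrays, apart from the overlapping WT groups of Srm probe 3, while the groups of Sms overlap and the Amd2 probes are open on some arrays.

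Nos2, the inducible nitric oxide synthase, was near the detection limit throughout. It has 2 probes, both outside the normalized table, so it has no deposited log2 value. On Nos2 probe 1 the non-normalized signal was 0.720 to 0.935 times the lowest signal of a detected probe of the same array in WT control, and 0.893 to 0.973 times in WT injured cartilage. In Mapk9 KO it was 0.850 to 0.981 times in control and 0.928 to 1.08 times in injured cartilage. Nos2 probe 1 was detected on 1 of 12 arrays, an injured Mapk9 KO array (detection p 0.0214), and Nos2 probe 2 was detected on 0 of 12. On the same measure Ass1, which was detected on every array, lay between 1.70 and 2.46 times the limit on the control arrays and between 2.53 and 3.47 times on the injured arrays.

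No change of Nos2 was detectable. In a limma fit over all 45281 probes after normexp background correction and quantile normalization, a fit added after the data were seen, Nos2 probe 1 had a log2 fold change of 0.32 in WT (95% confidence interval -0.12 to 0.76, adjusted p 0.40) and 0.26 in Mapk9 KO (-0.26 to 0.78, adjusted p 0.56). Nos2 probe 2 stood at -0.07 (-0.40 to 0.25, adjusted p 0.85) and 0.07 (-0.20 to 0.35, adjusted p 0.81). A signal at the detection limit bounds only what these probes could have shown.

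**Figure D2:**
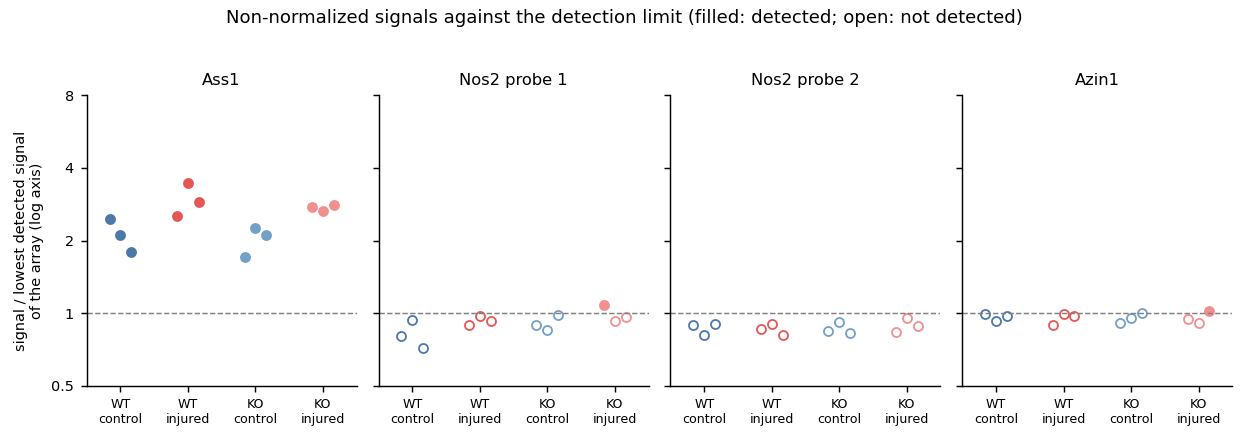
Non-normalized signal divided by the lowest signal of a detected probe on the same array (vertical log axis; dashed line at 1, the detection limit) for Ass1, Nos2 and Azin1 on 12 arrays, filled where detected. Ass1 lies above the line on every array, and Nos2 and Azin1 lie between 0.720 and 1.08, each with 1 array detected, above the line, on a single probe.

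Ass1 encodes argininosuccinate synthase, the step from citrulline towards arginine. Deposited log2 values were 8.05, 7.98 and 7.49 in WT control, 8.32, 9.03 and 8.56 in WT injured, 7.70, 8.12 and 7.86 in Mapk9 KO control and 8.52, 8.50 and 8.37 in Mapk9 KO injured cartilage. Injured arrays lay above the control arrays within each genotype, with a log2 difference of 0.79 ± 0.25 in WT (SE, n = 3 against 3; limma adjusted p 0.040) and 0.57 ± 0.18 in Mapk9 KO (adjusted p 0.027), both short of the 2-fold limit. These adjusted p-values were not stable, reaching 0.164 in WT without injured replicate 2 and 0.101 in Mapk9 KO without control replicate 1. With the methods' t-test the adjusted p in WT was 0.146, and with all 12 arrays in the limma fit that in Mapk9 KO was 0.052.

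Odc1 encodes ornithine decarboxylase, the enzyme that commits ornithine to polyamines. Its deposited log2 values were 12.35, 12.60 and 11.95 in WT control and 12.56, 13.08 and 12.53 in WT injured cartilage, which overlap. In Mapk9 KO they were 12.08, 12.31 and 12.16 in control and 12.50, 12.82 and 12.42 in injured cartilage, which do not. Odc1 did not pass the test, with log2 differences of 0.42 (95% confidence interval -0.12 to 0.96, limma adjusted p 0.24) in WT and 0.39 (-0.01 to 0.79, adjusted p 0.11) in Mapk9 KO. The injured array was the higher of all 3 same-numbered pairs in each genotype, by 0.21 to 0.58 in WT and by 0.26 to 0.51 in Mapk9 KO. With the replicate number as a block the limma adjusted p was 0.11 in WT and 0.057 in Mapk9 KO. On quantile-normalized signals it was 0.038 in Mapk9 KO after normexp correction and 0.0058 without it, with log2 differences of 0.39 and 0.38, and in WT the log2 difference was 0.19 under both (adjusted p 0.46 and 0.34). Leaving out single arrays took the WT difference from 0.25, without control replicate 3 or injured replicate 2, to 0.57. Azin1, the antizyme inhibitor that protects ornithine decarboxylase from degradation, was detected on 1 of 12 arrays (detection p 0.0449, an injured Mapk9 KO array), with log2 differences of -0.02 (-0.36 to 0.32) in WT and -0.05 (-0.35 to 0.26) in Mapk9 KO in the fit over all probes (limma adjusted p 0.97 and 0.90).

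Amd2 is a gene of S-adenosylmethionine decarboxylase, which makes the aminopropyl donor. Amd2 probe 1 was detected on 10 of 12 arrays and Amd2 probe 2 on 7, so both sit near the limit. The log2 differences post injury were -0.34 (95% confidence interval -1.02 to 0.35) and -0.53 (-1.30 to 0.24) in WT, and -0.21 (-0.77 to 0.36) and -0.76 (-1.55 to 0.03) in Mapk9 KO, none past the test (limma adjusted p 0.12 to 0.57). Without the injured Mapk9 KO array of replicate 3, the log2 difference of Amd2 probe 2 in Mapk9 KO was -1.28 and passed the threshold. No injured array then left was detected, so -1.28 is not a measured fold. Without injured replicate 1 or 2 instead, it was -0.49 and -0.50. Single omissions also took Amd2 probe 1 to -0.006 in WT and 0.002 in Mapk9 KO, and Amd2 probe 2 to -0.16 in WT.

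Srm encodes spermidine synthase, and its probes differed in what they showed. On Srm probe 1 the deposited log2 values were 10.94, 10.51 and 10.64 in WT control, 11.39, 11.83 and 11.67 in WT injured, 10.74, 10.75 and 10.35 in Mapk9 KO control and 11.35, 11.49 and 11.28 in Mapk9 KO injured cartilage. On Srm probe 2 they were 10.30, 9.50 and 9.84, then 10.60, 11.01 and 10.88, then 9.90, 10.04 and 9.63, and last 10.67, 10.81 and 10.53, in the same order of groups. On both probes every injured array lay above every control array. The log2 differences were 0.94 ± 0.21 and 0.95 ± 0.24 in WT (limma adjusted p 0.010 and 0.018) and 0.76 ± 0.18 and 0.81 ± 0.18 in Mapk9 KO (adjusted p 0.0068 and 0.0048), all under the 2-fold limit.

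Srm probe 3 passed the threshold in Mapk9 KO and not in WT. Its deposited log2 values were 9.86, 8.28 and 9.57 in WT control, 10.27, 9.46 and 9.79 in WT injured, 9.19, 9.07 and 9.03 in Mapk9 KO control and 10.62, 10.09 and 10.47 in Mapk9 KO injured cartilage. The WT groups overlap, and the low array of replicate 2 widens the WT control spread. The log2 fold change was 1.30 ± 0.19 in Mapk9 KO (limma adjusted p 0.00032) and the difference was 0.60 ± 0.38 in WT (adjusted p 0.29), and the difference between the genotypes was 0.70 (95% confidence interval -0.32 to 1.71, adjusted p 0.66). With the replicate number as a block the WT difference had an SE of 0.23 and a limma adjusted p of 0.091. The injured array was the higher of all 3 same-numbered WT pairs. Without WT control replicate 2 the WT difference was 0.12 and that between the genotypes 1.18 (adjusted p 0.15), and without WT control replicate 1 they were 0.91 and 0.38. With the highest-mean probe standing for each gene, Srm was not called in Mapk9 KO. When replicate 1 of either WT group was left out, Srm probes 1 and 2 passed the fold limit in WT, with values up to 1.06 and 1.16. Without injured replicate 2 their limma adjusted p in WT rose to 0.0504 and 0.072, without injured replicate 3 that of probe 2 was 0.058, and the adjusted p of the methods' t-test was 0.053 and 0.099.

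Sms encodes spermine synthase, the next step. Its deposited log2 values ran from 10.60 to 11.33 on the control arrays and from 10.65 to 11.26 on the injured arrays, an overlap in both genotypes. The log2 difference was 0.09 (95% confidence interval -0.42 to 0.61, limma adjusted p 0.81) in WT and -0.02 (-0.51 to 0.46, adjusted p 0.95) in Mapk9 KO, so the intervals leave out a 2-fold change in either direction. The Sms probe outside the table was detected on 0 of 12 arrays.

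Sat1 encodes spermidine/spermine N1-acetyltransferase, the enzyme that begins polyamine breakdown and export. Its deposited log2 values were 12.24, 12.56 and 11.77 in WT control, 13.34, 13.26 and 12.96 in WT injured, 12.31, 12.58 and 11.93 in Mapk9 KO control and 13.16, 13.41 and 12.94 in Mapk9 KO injured cartilage. All injured arrays lay above all control arrays. The log2 difference was 1.00 ± 0.24 in WT (limma adjusted p 0.014), a fold just under 2, and 0.89 ± 0.21 in Mapk9 KO (adjusted p 0.0070), so Sat1 passed the adjusted p and missed the fold limit. The adjusted p in WT was 0.053 and 0.051 when injured replicate 1 or 2 was left out, and with the methods' t-test it was 0.088 in WT and 0.060 in Mapk9 KO. Sat1 passed both limits in WT with array medians subtracted (1.05), when control replicate 1 or 2 or injured replicate 3 was left out (up to 1.18), and in Mapk9 KO without control replicate 2 or injured replicate 3 (up to 1.04). In the non-normalized file the probes of Sat1, Sms and Oaz1 and Amd2 probe 1 carry the name of a predicted locus, so signal from a near-identical copy is uncertain for them.

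**Figure D3:**
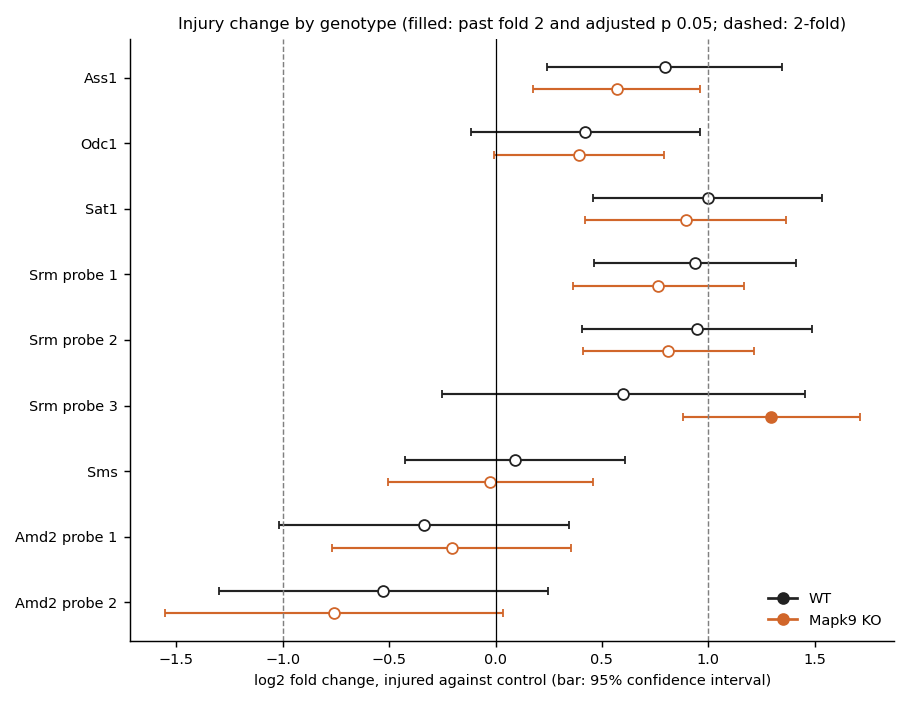
Log2 fold change of injured against control cartilage (horizontal axis) with its 95% confidence interval for 9 probes, WT in black and Mapk9 KO in orange, filled where past a fold of 2 (dashed) and an adjusted p of 0.05. Srm, Sat1 and Ass1 between 0.57 and 1.30, and the intervals of Odc1, Sms, Amd2 and, in WT, Srm probe 3 reach 0.

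Neither genotype comparison nor the interaction called a member. Between control groups 0 of 7 member probes passed, beside 0.119% of all probes, and the smallest adjusted p was 0.98, with log2 differences of Mapk9 KO minus WT from -0.14 to 0.08. Between injured groups 0 of 7 passed, beside 0.181% of all probes, and the smallest adjusted p was 0.37, for Srm probe 3 (log2 difference 0.56, 95% confidence interval 0.04 to 1.08). At an unadjusted p under 0.05 limma had 0 of the 7 between control groups and 1 between injured groups, beside 6.46% and 12.6% of all probes, and the methods' t-test called 0 genes in either. The intervals of the interaction are wide enough to hold differences of more than 2-fold for Srm probe 3 and both Amd2 probes.

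The interaction called 0% of all probes by limma, with 2088 of 21004 (9.94%), and 0 of the 7 member probes, at an unadjusted p under 0.05. With the replicate number as a block it called 112 probes, and the genotype comparison in injured cartilage rose from 38 to 188 probes, but no member probe among them, the smallest adjusted p of a member being 0.36 for the interaction and 0.10 between injured groups, both for Srm probe 3.

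Within-array differences set 1 gene against another on the same array and so show unequal change, not unequal level. Along the polyamine route the change was unequal on the probes compared, 1 per gene. Probes of 1 gene also differed, as Srm probes 1 and 3 did in Mapk9 KO (log2 changes of 0.76 and 1.30). Unequal change of genes and unequal response of probes therefore cannot be told apart here. Odc1 minus Sat1 on the deposited log2 scale lay between -0.26 and 0.23 on the control arrays and between -0.78 and -0.18 on the injured arrays. Averaged over the genotypes it fell by 0.54 post injury, with a change of -0.57 in WT and -0.50 in Mapk9 KO, and the injured arrays lay below the control arrays within each genotype. Srm probe 1 minus Sms lay between -0.64 and 0.17 on the control arrays and between 0.36 and 0.76 on the injured arrays, 0.82 higher on average. Each of the 2 pairs gave an exact two-sided permutation p of 0.005, the smallest that exchange of injury labels within genotypes allows, and 0.005 after Benjamini-Hochberg adjustment. With labels exchanged only within pairs of the same replicate number, each gave an exact p of 0.03125, again the smallest possible, with all 6 pairs of arrays in 1 direction.

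**Figure D4:**
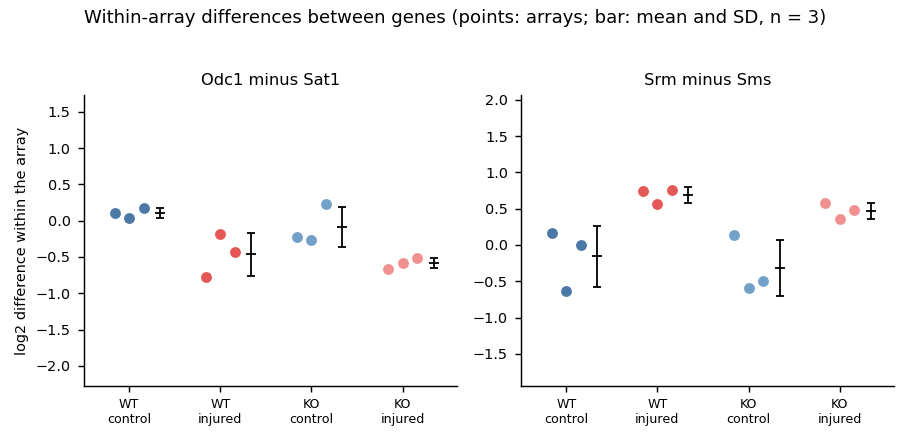
Difference between the log2 values of 2 genes on each array (vertical axis, scales differ between panels) by group, with mean and SD, for Odc1 minus Sat1 and Srm minus Sms on deposited log2 values. Injured arrays lie above control arrays for Srm minus Sms, and within each genotype below them for Odc1 minus Sat1.

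Around these genes, a list of 49 genes of arginine transport, the urea cycle, nitric oxide synthesis, proline, creatine and agmatine synthesis, antizymes, polyamine oxidation and transport, hypusine and the methionine cycle was followed. Of the 49, 37 had a probe in the normalized table, 3 passed the threshold upward and 2 downward in WT, and 4 upward and 2 downward in Mapk9 KO. Counted in the same way, as gene symbols called on any of their probes, 8.36% of all symbols passed upward and 8.25% downward in WT, and 10.6% and 10.4% in Mapk9 KO. The upward counts lie near these shares, and neither direction is read as a result about the list. The WT upward count includes Slc7a2 only through a probe detected on no control array and 1 injured array. It also includes Slc3a2, detected on no control array and bounded at 1.44-fold, under the fold limit. The median log2 fold change over the highest-mean probes was 0.09 in WT and 0.01 in Mapk9 KO.

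The called genes were the transporters Slc7a3, Slc7a2 and Slc3a2, the creatine genes Gamt and Slc6a8, and Smox on 1 probe. Slc7a3, a cationic amino acid transporter that carries arginine, rose from 5.78 ± 0.65 to 8.63 ± 0.04 (SD, n = 3) in WT and from 5.16 ± 0.50 to 9.11 ± 0.26 in Mapk9 KO, where it was undetected on the control arrays and at least 9.01-fold higher, measured against the lowest value of a detected probe on each control array. Slc7a2, another arginine transporter, passed in Mapk9 KO on probe 1 (log2 fold change 1.63, limma adjusted p 5.51e-05), which stood at 0.99 in WT (adjusted p 0.0093). Its dimmer probe 2 also passed in both genotypes (adjusted p 0.021 in WT and 0.00040 in Mapk9 KO), but it was detected on no control array, on 1 of 3 WT injured arrays and on 2 of 3 Mapk9 KO injured arrays. The injured means of probe 2 did not exceed the detection limit of the control arrays, so no fold is given for it. Slc7a1 was outside the table, with 0 of 12 arrays detected on its 2 probes. Slc3a2, the heavy chain that several amino acid transporters share, rose by at least 1.44-fold in WT and at least 1.48-fold in Mapk9 KO, from no detected control array.

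Gamt, which makes creatine from guanidinoacetate, fell by 1.49 in WT and fell by 2.23 in Mapk9 KO on the log2 scale (limma adjusted p 0.00082 and 1.60e-05). Slc6a8, the creatine transporter, fell by 1.21 and fell by 1.34 (adjusted p 0.0036 and 0.00042). Smox, spermine oxidase, has 5 probes, and only the dimmest, probe 5, passed, in Mapk9 KO (1.11, limma adjusted p 0.0033) and not in WT (-0.07). Smox probes 1 and 2 stood at 0.75 and 0.80 in WT and 0.43 and 0.45 in Mapk9 KO. Smox probe 3 stood at 0.89 in WT (adjusted p 0.0068) and 0.91 in Mapk9 KO (adjusted p 0.0018), under the fold limit, and probe 4 at -0.12 and 0.49.

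Other listed genes gave no call. Oaz1, the antizyme that marks ornithine decarboxylase for degradation, had log2 differences of 0.17 in WT and 0.01 in Mapk9 KO (limma adjusted p 0.58 and 0.97). Asl, which releases arginine from argininosuccinate, was detected on only some arrays, with log2 differences of 0.22 on probe 1 in Mapk9 KO and -0.12 on probe 2 in WT. Asl probe 1 was detected on no WT injured array and was at least 1.03-fold lower there than in control, and Asl probe 2 was detected on no Mapk9 KO control array and was at least 1.07-fold higher in injured cartilage, neither past the test (limma adjusted p 0.27 and 0.088). Gch1, the first enzyme of the synthase cofactor tetrahydrobiopterin, stood at 0.38 and -0.07 on probe 1 and -0.17 and 0.40 on probe 2. Nos3, the endothelial synthase, was detected on every array on the 3 of its 4 probes that are in the table, with log2 differences between -0.09 and 0.23 and no call. Nos1, the neuronal synthase, was detected on 1 of 12 arrays. Nos1 and Nos3 were named after their values were seen.

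**Figure D5:**
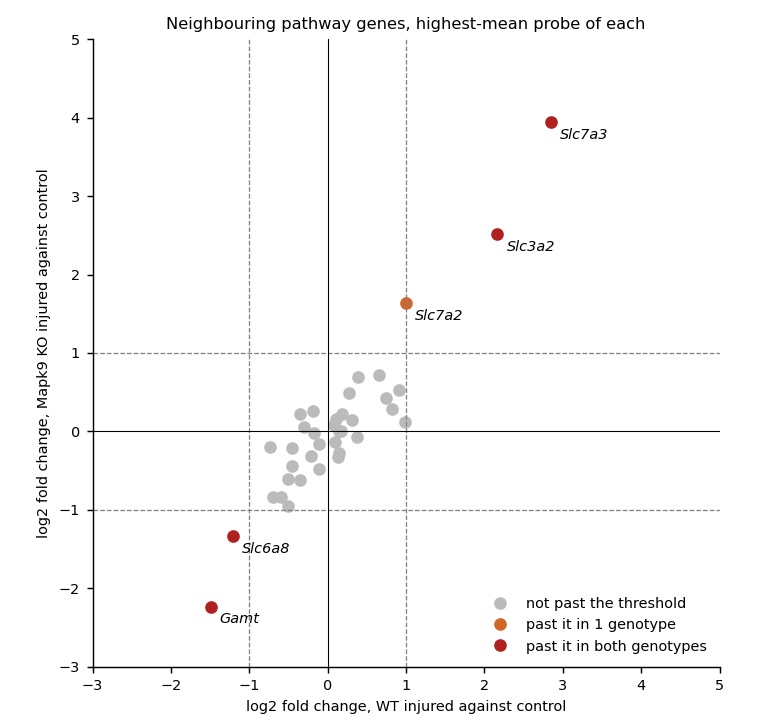
Log2 fold change post injury in WT (horizontal axis) and in Mapk9 KO (vertical axis) for the highest-mean probe of 37 listed genes, with dashed lines at a 2-fold change. Slc7a3, Slc3a2, Gamt and Slc6a8 passed the threshold in both genotypes on this probe and Slc7a2 in Mapk9 KO, and the other 32 genes lie inside the 2-fold lines.

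Markers of several cell types moved with injury beside these results. All 10 chondrocyte markers were detected on all 12 arrays, their summed log2 level ran from 14.85 to 15.67 on control and from 16.13 to 16.55 on injured arrays, and 7 of 10 passed upward in each genotype, though not Col2a1, the defining cartilage collagen (0.54 and 0.03). Skeletal muscle markers fell, 9 of 10 in WT and 10 of 10 in Mapk9 KO, from a summed level of 15.88 to 17.25 on control to 13.15 to 14.996 on injured arrays. Of 10 macrophage and monocyte markers, 5 fell in WT and 6 in Mapk9 KO, with Adgre1, the defining one, at -1.38 and -1.71, and 1 rose (Cd14, named after its values were seen, 5.01 and 5.33). Their summed level ran from 14.10 to 14.83 on control and from 15.03 to 15.49 on injured arrays. The falls include Fcgr1, named after its values were seen, which was detected on no WT array and on only 1 Mapk9 KO array, a control. Its fall is therefore not a measured one. Among 7 neutrophil markers, all detected on every array, 2 rose in each genotype (Elane and Ngp, named after their values were seen), with a summed level of 15.57 to 16.48 on control and 16.26 to 16.76 on injured arrays. No erythroid marker of 5 was called, and 1 of 6 endothelial markers rose in WT (Cdh5, named after its values were seen, 1.13). The part of these cell types in the results for these genes was not tested.

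The genes most like Odc1 across the 12 arrays by Pearson correlation were Gripap1 (0.972), Raly (0.966), Ap4m1 (0.963), Prpf3 (0.957) and Unc93b1 (0.953). These are descriptions over arrays that share the injury groups and the normalization, and Nos2 has no deposited value to compare.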

How the data were processed

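Illumina mouse BeadChips measured RNA of hip cartilage on 12 arrays. The authors deposited signal intensities, without background correction, and a detection p-value for 45281 probes, and log2 values for 21004 probes that they background-corrected with negative control probes and normalized with vsn. Groups and replicate numbers came from the labels, with 3 arrays per group, and the number of arrays limits the precision. The 8 genes and all gene lists were chosen with earlier results of these data known. The named genes were every probe of the 8 genes and of Amd2, listed genes past the threshold in either injury comparison, Slc7a1, Slc7a2, Oaz1, Smox, Asl and Gch1, the defining marker of each cell type list, and the 5 genes most correlated with Odc1; 2 further genes of the list are not reported here.

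Each comparison was fitted with limma 3.58.1 (lmFit, eBayes) in R 4.3.3 on the deposited log2 values, with Benjamini-Hochberg adjustment over all 21004 probes, on the 6 arrays concerned or all 12 for the interaction, and the threshold was a fold above 2 and an adjusted p under 0.05 (the adjusted p alone for the interaction). Where no array of a group was detected, the fold is a bound against the mean of the lowest value of a detected probe on each array, or the probe's own value if higher. Nos2 and Azin1 were fitted on all probes of the array after normexp correction from the detection p-values (offset 16) and quantile normalization. Symbols were matched to a RefSeq table (GRCm38.p6, names only): 14489 of 21004 probes by accession, 155 by gene ID, 1538 by symbol and 1952 by an older symbol, and 2870 kept the file's name. Lists were also matched through the other file's symbols. The files name no genome build, so coordinates are left out.

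Same-numbered arrays deviated together from their group means (correlations 0.153 to 0.390 over 18 pairs, against -0.289 to 0.0825 over the 36 others). The main fits did not include the replicate numbers, so their SEs, intervals and adjusted p-values do not use this pairing. Blocking on the numbers was an alternative. The other alternatives were normexp with quantile normalization, quantile normalization alone, array medians subtracted, a filter for probes detected on 3 arrays, all 12 arrays in the fit, the label code number as a block, the methods' t-test, 1 probe per gene (the highest mean), and omission of each array in turn. The scripts were tested on simulated data. Python 3.11 was used for lists and figures.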

Additional observations from a re-analysis of the deposited data

How the results depend on the processing

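The number of member genes called was 0 in WT and 1 in Mapk9 KO, with a range of 0 to 2 and of 1 to 2 when single arrays were left out. In WT it was 2 without control replicate 1 and 1 without control replicate 2, without injured replicate 1 or 3, and with array medians subtracted. In Mapk9 KO it was 2 without control replicate 2 or injured replicate 3, and 0 with the highest-mean probe per gene. No called value changed sign. Values that were not called under either setting changed sign in 62 of 647 recomputations, 47 of them on leaving out an array and 15 under other settings, where they lay between -0.17 and 0.20. The replicate block changed no call of a member.

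Over all probes, the count called in WT was 3086 and fell to 1140 with quantile normalization without background correction and to 1624 with the methods' t-test, in Mapk9 KO 3934 fell to 1756 with the same quantile setting, and that t-test called 0 in either genotype comparison. Between control groups 25 probes were called, 13 with quantile normalization without background correction, 44 with all 12 arrays in the fit and 412 without WT control replicate 3, which also gave 242 for the interaction. Between injured groups 38 became 188 with the replicate block, 22 with quantile normalization without background correction, 23 without WT injured replicate 2, 154 without WT injured replicate 1, and 64 without Mapk9 KO injured replicate 2. The cause of these shifts was not tested. Signal over background limits what can be said of Nos2, Azin1 and Amd2.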
